A study of Mus musculus with 8 samples.

Results

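This account follows 48 mouse genes that type I and type II interferon are known to induce, or that load and display peptides on MHC class I molecules, through knockdown of 3 chromatin remodeller subunits in muscle precursor cells. The genes were taken by symbol from the table of 24573 genes, and every listed symbol was found in it. They comprise 23 antiviral effectors, 2 RNA sensors, 4 transcription factors, 7 enzymes of ubiquitin, ISG15 and ADP-ribose transfer, 6 interferon-inducible GTPases and 6 genes of antigen processing and MHC class I. RNA was sequenced from proliferating C2C12 cells, a myoblast line from ATCC, in 8 libraries. All cells had been transduced with a lentivirus carrying a short hairpin RNA (shRNA) in the presence of polybrene and then held under puromycin, so the controls carry the same vector selection as the knockdowns. The shRNA was a scrambled sequence (scramble) or was directed against Brd9, against Baf250A (encoded by Arid1a) or against Baf180 (encoded by Pbrm1), with 2 libraries for each. Titles name 1 shRNA per target and 1 scramble line, and no label says that the libraries of a group are separate cultures, so p-values reflect only how much these libraries vary, and that variation may be technical. Off-target effects of a hairpin and loss of its target cannot be told apart, nor can a change shared by all knockdowns and a peculiarity of the scramble line.

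Interferons bind receptors whose Janus kinases phosphorylate STAT proteins. Complexes that hold STAT2 and IRF9 bind the interferon-stimulated response element (ISRE) in promoters, and STAT dimers bind the gamma-activated site (GAS), after which antiviral effectors, guanylate-binding proteins and the peptide-loading machinery are transcribed. Many of these genes also have a basal level in cells that receive no interferon. Brd9 belongs to the non-canonical, Baf250A to the canonical and Baf180 to the polybromo form of the SWI/SNF (BAF) remodellers, which move nucleosomes at promoters and enhancers.

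The libraries held 17763062 to 20400855 estimated counts. The targeted genes fell in their own libraries, Brd9 from 717 and 637 to 157 and 135 counts, Arid1a from 2834 and 2720 to 1335 and 1243, and Pbrm1 from 876 and 969 to 65 and 86. All 8 myoblast markers were measured. Of 11 leukocyte markers, Tyrobp, Adgre1, Cd3e and Itgam were among those with 0 counts in every library, 7 had at most 3 counts in any library, and the summed level of the list lay between 2.07 and 3.65 CPM (counts scaled to a common library size) in all 8 libraries. In the edgeR tests described below 2 of the 11 were tested. Their median log2 fold changes against scramble were 0.24 (Brd9), −0.39 (Baf250A) and 0.82 (Baf180). Neither was called against scramble, but 1 was higher with Baf180 shRNA at an unadjusted p under 0.05. With Baf250A shRNA 1 of the 2 was called lower than with Baf180, as were 31.7% of all tested genes. Libraries were skewed by transcript GC content. The 10% of genes of lowest GC deviated, in the median, from the mean of the libraries by −1.10 (Baf180 replicate 1) to 1.06 (Baf250A replicate 2) on the log2 scale. Results are therefore also given, where it matters, with offsets, which are corrections fitted in each library for how levels follow GC content and length. Scramble replicate 2 had 16402 genes with a count, against 14195 to 14768 in the others. In bulk RNA, fewer cells of a kind and less RNA per cell cannot be told apart.

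Per kilobase of gene length, the basal levels of the 48 genes spanned several orders of magnitude. Ifitm3, a membrane protein that blocks virus entry, was highest with a mean of 527 CPM per kilobase over the 8 libraries, followed by its neighbour Ifitm2 at 319 and by B2m, the invariant light chain of MHC class I, at 200.1. The class I heavy chain gene H2-D1 stood at 31.7 and H2-K1 at 23.5 CPM per kilobase. In contrast, Isg15, the ubiquitin-like protein often used as a marker of an interferon response, stood at 1.09 CPM per kilobase. The filter on low counts kept 37 of the 48 genes and removed 11: Ifit3, Ifi44, Rsad2, Mx1, Mx2, Oas1a, Cmpk2, Usp18, Trim30a, Iigp1 and Psmb9. Mx2, Oas1a, Usp18, Trim30a and Iigp1 had at most 3 counts in every library. Ifit3, of the interferon-induced RNA-binding family, had 4 and 5 counts with scramble, 10 and 4 with Brd9, 6 and 5 with Baf250A and 10 and 8 with Baf180 shRNA. Ifi44 had 0 and 1 counts with scramble and 7 and 3 with Brd9 shRNA, a ratio of counts of 9.95 with an exact 95% interval from 1.42 to 432, which covers counting error only. Rsad2, which makes an antiviral nucleotide, reached at most 4 counts (scramble replicate 2), and Mx1, a dynamin-like GTPase, at most 6 (scramble replicate 1). The filter also shapes what was testable, since Psmb8 passed it only through the Baf250A libraries, Gbp7 through Brd9 and Baf250A, Irf7 through Brd9 and Baf180, and Ifit1 through scramble and Baf250A.

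**Figure D1:**
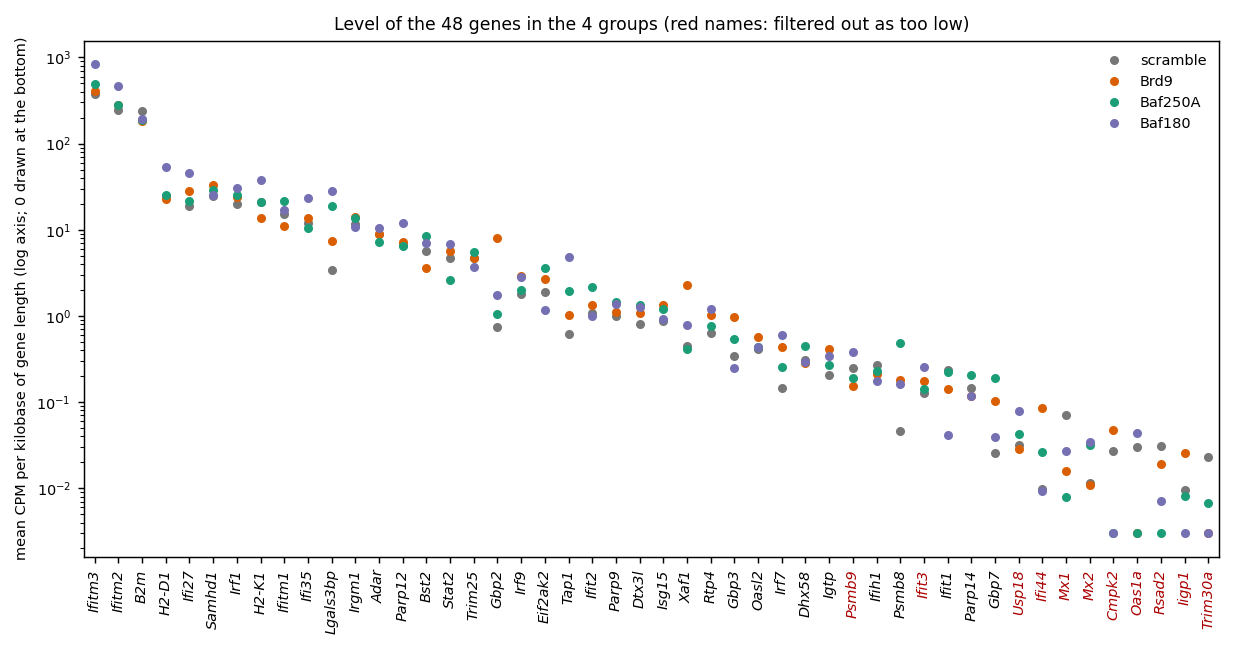
Mean level of each of the 48 genes in the 4 groups (points, 2 libraries each), in CPM per kilobase of gene length on a log axis, ordered by the mean over all libraries; values of 0 are drawn at the bottom and names in red did not pass the filter on low counts. Ifitm3, Ifitm2 and B2m stand above the rest at 527, 319 and 200.1 CPM per kilobase, and 9 of the 11 genes that failed the filter lie at the right end, with Psmb9 and Ifit3 among the tested genes.

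The interferon genes themselves had almost no counts. Of 20 interferon genes listed, among them Ifnb1, Ifng and the Ifna cluster, 18 had 0 counts in all 8 libraries, which allows up to 3 counts per library. The other two, Ifna13 and Ifne, had 1 and 2 counts in all.

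Promoters show which genes carry the letters that interferon-activated factors read. RefSeq promoter windows on GRCm38.p6, from 250 bases before to 50 after the annotated start, were found for 39 of the 48 genes; Dhx58, Ifi27, Iigp1, Mx1, Mx2, Parp14, Parp9, Rtp4 and Usp18 had none. The ISRE core (GAAA, then any 2 bases, then GAAA), searched on both strands, occurred in a window of 18 of these 39 genes (46.2%), against 3.99% of all 27025 genes with a window. The GAS letters TTCNNNGAA, a palindrome in form, occurred in 12 of 39 (30.8%), against 9.55% of all. Among the genes called against scramble in any comparison below, 6 of 17 with a window held the ISRE core (Gbp2, Gbp7, Ifit1, Ifitm2, Ifitm3 and Stat2), and among those tested and not called 8 of 15 did (B2m, Bst2, Eif2ak2, Gbp3, Ifih1, Igtp, Irgm1 and Isg15). A match is a description of letters and not evidence of binding. The windows of 4 genes are shown, in lower case with every ISRE core in capitals, because they span the patterns described below: Gbp2 (chr3:142620413-142620712, plus strand), which rose with Brd9 shRNA, Isg15 (chr4:156200769-156201068, minus strand), which was not called, Ifitm3 (chr7:141010695-141010994, minus strand), the highest gene, and Tap1 (chr17:34187306-34187605, plus strand), which rose most steeply with Baf180 shRNA among the peptide-loading genes and holds no match. Each reads 5′ to 3′ along the gene.
Gbp2: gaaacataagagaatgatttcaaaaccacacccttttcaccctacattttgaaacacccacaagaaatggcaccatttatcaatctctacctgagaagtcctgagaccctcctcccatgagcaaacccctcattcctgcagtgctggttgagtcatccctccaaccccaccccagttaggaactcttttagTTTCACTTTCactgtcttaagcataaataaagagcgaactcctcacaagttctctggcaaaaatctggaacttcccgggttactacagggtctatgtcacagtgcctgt
Isg15: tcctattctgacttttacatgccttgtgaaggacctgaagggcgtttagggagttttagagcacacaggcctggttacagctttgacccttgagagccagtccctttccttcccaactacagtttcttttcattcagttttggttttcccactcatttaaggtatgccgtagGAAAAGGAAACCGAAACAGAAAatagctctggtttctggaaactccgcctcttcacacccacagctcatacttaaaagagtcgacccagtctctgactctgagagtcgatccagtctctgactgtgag
Ifitm3: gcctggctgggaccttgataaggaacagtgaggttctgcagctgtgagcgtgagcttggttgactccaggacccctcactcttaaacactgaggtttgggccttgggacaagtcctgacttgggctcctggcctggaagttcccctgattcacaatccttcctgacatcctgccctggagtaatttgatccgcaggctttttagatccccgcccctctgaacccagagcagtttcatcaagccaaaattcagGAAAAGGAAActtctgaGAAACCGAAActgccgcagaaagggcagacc
Tap1: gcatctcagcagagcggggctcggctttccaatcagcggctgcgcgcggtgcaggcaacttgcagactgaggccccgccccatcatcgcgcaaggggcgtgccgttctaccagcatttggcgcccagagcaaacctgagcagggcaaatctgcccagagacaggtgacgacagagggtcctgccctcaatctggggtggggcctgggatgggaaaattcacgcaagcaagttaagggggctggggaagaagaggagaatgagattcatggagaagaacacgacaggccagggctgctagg
The single match in Gbp2, on the opposite strand, begins 59 bases before the start (position -59). Isg15 has 3 overlapping matches, Ifitm3 has 2 and Tap1 has 0.

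Each knockdown was compared with scramble by edgeR's quasi-likelihood test, with Benjamini-Hochberg adjustment over all 12420 tested genes, and a gene with an adjusted p under 0.05 is called higher or lower. With Brd9 shRNA 4 of the 37 tested genes were called higher and 0 lower, where 6.45% of all tested genes were called higher, 3.57% lower and 10.0% either way. At an unadjusted p under 0.05, edgeR had 4 lower, and among the adjusted calls DESeq2 had 1 lower and limma-voom 0. With Baf250A shRNA 4 were higher and 1 lower, against backgrounds of 15.5%, 14.0% and 29.5%. Of the 4, Psmb8 was testable only because of these libraries, and Gbp7 only because of these and the Brd9 libraries. With Baf180 shRNA 14 were higher (37.8%) and 1 lower (2.70%), against backgrounds of 17.2%, 17.0% and 34.2%. Irf7, 1 of the 14, was testable only because of the Brd9 and Baf180 libraries. Ifit1, the 1 lower, was testable only because of the scramble and Baf250A libraries. The median log2 fold change of the 37 genes was 0.30 with Brd9, 0.37 with Baf250A and 0.61 with Baf180 shRNA, while that of all tested genes was 0.04, −0.02 and −0.02. In total, 18 of the 37 were called in at least 1 comparison with scramble. These comparisons share the scramble libraries. With the offsets the counts were 9 higher and 2 lower (Brd9), 12 and 2 (Baf250A) and 17 and 1 (Baf180), where 11.8%, 17.7% and 17.7% of all genes were called higher, 18.3%, 17.4% and 20.0% lower, and 30.1%, 35.1% and 37.7% either way. The Brd9 count of 4 dropped to 2 without either scramble library. The Baf250A count of 5 became 3 without either scramble library or Baf250A replicate 2, and 8 without Baf250A replicate 1. The Baf180 count of 15 became 9 and 8 when scramble replicate 1 or 2 was dropped, and 9 when Baf180 replicate 1 was. The 14 genes called higher with Baf180 shRNA had a median transcript GC content of 53.3%, and the 22 not called one of 48.1%. The part of GC content in the calls was examined only through the offsets.

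**Figure D2:**
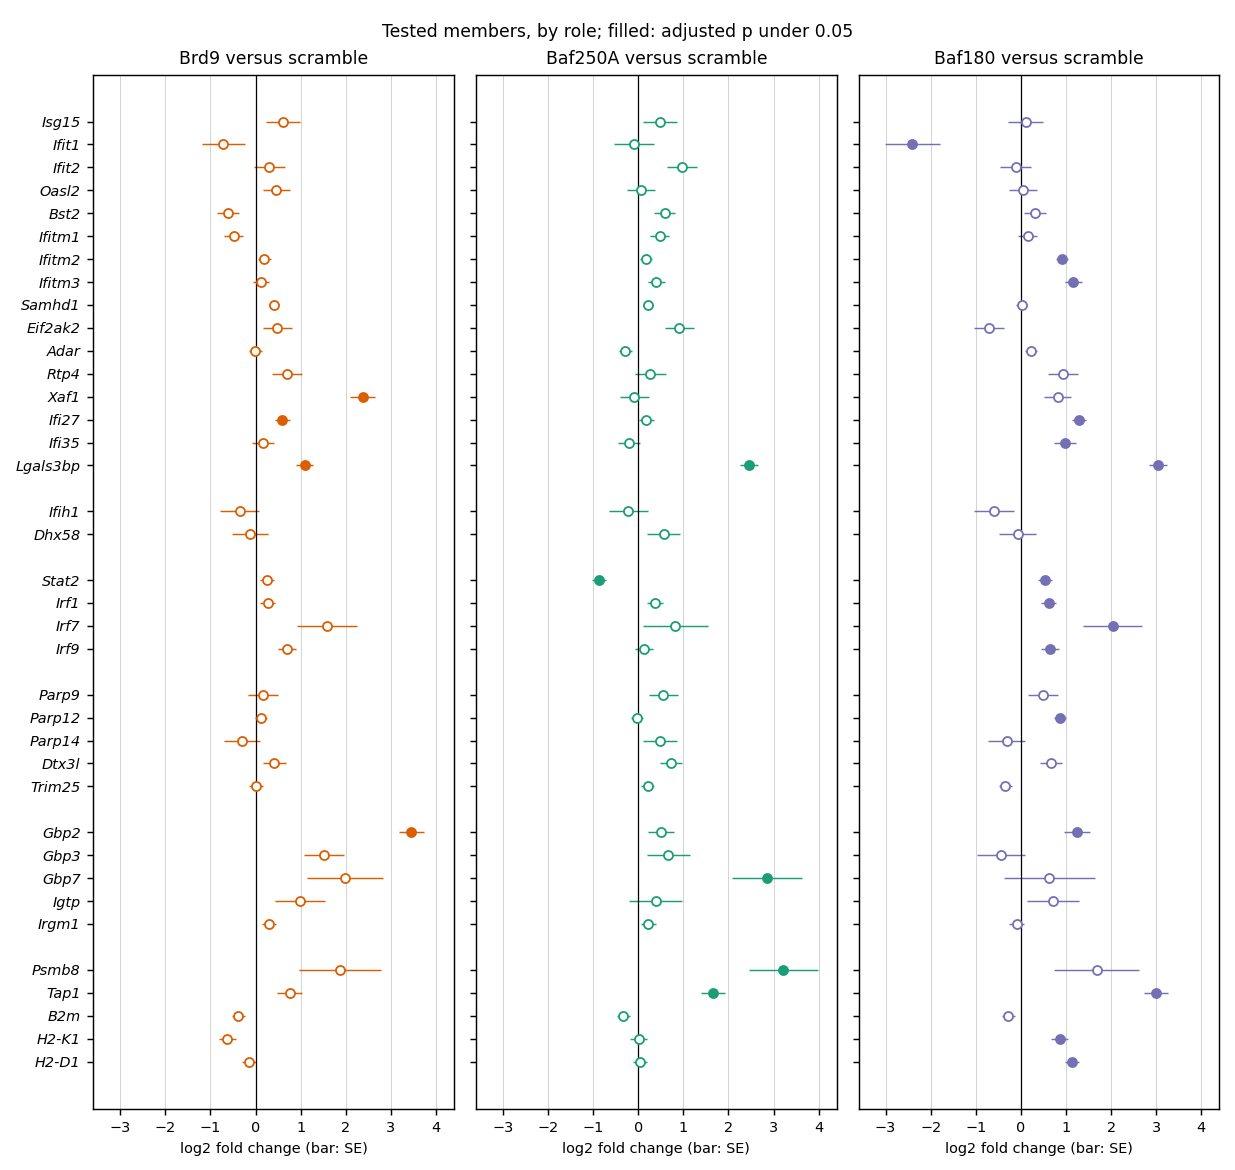
Log2 fold change against scramble of the 37 tested genes, grouped by role from antiviral effectors at the top to antigen processing at the bottom, with the standard error as a bar; filled points are called at an adjusted p under 0.05. Of the Baf180 points 14 are filled to the right of 0 and 1 (Ifit1) to the left, of the Brd9 points 4 are filled, and of the Baf250A points 4 to the right and 1 (Stat2) to the left.

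Of the 16 antiviral effectors tested, 3 were higher with Brd9 (Xaf1, Ifi27 and Lgals3bp), 1 with Baf250A (Lgals3bp) and 5 with Baf180 shRNA (Ifitm2, Ifitm3, Ifi27, Ifi35 and Lgals3bp), and Ifit1 was lower with Baf180 shRNA. The shares of all tested genes called higher were 6.45%, 15.5% and 17.2%. With the offsets 5, 7 and 7 of the 16 were higher, so the Baf250A count moved from 1 to 7. Lgals3bp, a secreted glycoprotein that binds galectins (chromosome 11, 118392747 to 118401959), had 140 and 123 counts with scramble, 337 and 295 with Brd9, 923 and 696 with Baf250A, and 1178 and 994 with Baf180 shRNA. All 6 knockdown libraries lay above both scramble libraries, the Brd9 libraries least. In CPM the means were 7.49 ± 0.53 (SD, n = 2), 15.9 ± 0.63, 41.2 ± 7.4 and 61.3 ± 9.9. The rise was 8.18-fold with Baf180 (log2 fold change 3.03, SE 0.20, edgeR adjusted p = 3.34e-05), 5.50-fold with Baf250A (2.46, SE 0.19, adjusted p = 6.34e-05) and 2.12-fold with Brd9 shRNA (1.09, SE 0.19, adjusted p = 0.00936). The Brd9 call was lost without either scramble library (adjusted p up to 0.117), and the others held in every fit that left out 1 library. Its promoter window holds no ISRE core.

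Xaf1, which counters the caspase inhibitor XIAP (chromosome 11, 72301461 to 72313733), moved with Brd9 shRNA. It had 19 and 18 counts with scramble and 107 and 111 with Brd9 shRNA, and 23 and 16 with Baf250A and 34 and 32 with Baf180 shRNA. Both Brd9 libraries stood far above the other 6. The rise was 5.19-fold (log2 fold change 2.38, SE 0.28, edgeR adjusted p = 0.0013) and held without any single library. Brd9 exceeded Baf250A by 2.46 (SE 0.28, adjusted p = 0.000442) and Baf180 by 1.56 (SE 0.26, adjusted p = 0.00453) on the log2 scale. For Baf180 shRNA the log2 fold change of 0.81 missed the threshold (adjusted p = 0.0648) and passed it with the offsets (0.93, adjusted p = 0.0351).

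The Ifitm genes lie together on chromosome 7, and Ifitm2 and Ifitm3 rose with Baf180 shRNA. Ifitm3 (141009590 to 141010744) had 4451 and 4059 counts with scramble, 5048 and 5394 with Brd9, 6621 and 5945 with Baf250A and 11147 and 7990 with Baf180 shRNA. Ifitm2 (140954837 to 140959686) had 2978 and 2644, 3626 and 3631, 3736 and 3351, and 5678 and 5009 counts in the same order. For both genes the Baf180 libraries were the highest of the 8. With Baf180 shRNA the rise was 2.23-fold for Ifitm3 (log2 1.16, SE 0.19, edgeR adjusted p = 0.00258) and 1.88-fold for Ifitm2 (0.91, SE 0.14, adjusted p = 0.00209), and neither was called with Brd9 or Baf250A shRNA. With the offsets the Baf180 values were 1.03 and 0.64, Baf250A values of 0.54 and 0.44 were called as well, and so was the Brd9 value of Ifitm2 (0.39). Ifitm1, the third of these genes, had 199 and 179 counts with scramble and 242 and 181 with Baf180 shRNA, and was called against scramble only with the offsets, with Baf250A shRNA (0.59). The genes are close paralogs, so how estimated counts were divided among them is uncertain.

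Ifi27, a small mitochondrial and nuclear membrane protein (chromosome 12, 103434189 to 103440245), had 338 and 327 counts with scramble, 593 and 545 with Brd9, 453 and 390 with Baf250A and 888 and 751 with Baf180 shRNA. The groups did not overlap in CPM. It rose 2.44-fold with Baf180 (log2 fold change 1.29, SE 0.16, adjusted p = 0.000849) and 1.51-fold with Brd9 shRNA (0.60, SE 0.16, adjusted p = 0.0489). The Brd9 call was lost in each of the 4 fits that left out 1 of its libraries (adjusted p up to 0.253). Ifi35, an adaptor of cytokine signalling (chromosome 11, 101448412 to 101458701), had 316 and 261 counts with scramble and 699 and 437 with Baf180 shRNA, with 363 and 367 for Brd9 and 290 and 269 for Baf250A. Baf180 replicate 1 was the highest library and replicate 2 the next, so no group overlapped with them. The log2 fold change of 0.97 (SE 0.24, edgeR adjusted p = 0.0151) lost its call without either scramble library or Baf180 replicate 1 (adjusted p up to 0.105).

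Ifit1, which binds RNA that lacks cap methylation, was the one gene lower with Baf180 shRNA by edgeR's test. Of the listed genes DESeq2 called 0 lower there and limma-voom 1. Ifit1 had 12 and 10 counts with scramble, 7 and 8 with Brd9, 11 and 12 with Baf250A, and 1 and 3 with Baf180 shRNA. As the gene passed the filter only through the scramble and Baf250A libraries, its call with Baf180 shRNA supports nothing further. The fitted log2 fold change was −2.41 (SE 0.61, edgeR adjusted p = 0.0162), and the call was lost without either scramble library or Baf180 replicate 1 (adjusted p up to 0.128). Its relative Ifit2 had 70 and 81 counts with scramble, 115 and 215 with Baf250A and 64 and 78 with Baf180 shRNA and was not called against scramble.

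The other antiviral effectors that passed the filter were not called against scramble without the offsets. Isg15 (chromosome 4, 156199424 to 156200818) had 11 and 12 counts with scramble, 22 and 18 with Brd9, 16 and 20 with Baf250A and 13 and 12 with Baf180 shRNA. All the Brd9 and Baf250A libraries were above the scramble libraries and the Baf180 libraries overlapped with them in CPM. Of all tested genes 33.8% (Brd9) and 36.3% (Baf250A) lay above scramble in this way. The log2 fold changes of Isg15 were 0.61, 0.48 and 0.10, with edgeR adjusted p values of 0.291, 0.342 and 0.862. At 11 to 22 counts per library, changes of this size were not detectable. Oasl2, Bst2 (tetherin, which holds budding virions at the cell surface), Ifitm1, Samhd1 (a dNTP hydrolase), Eif2ak2 (the RNA-activated kinase PKR), Adar (an RNA-editing enzyme) and Rtp4 were likewise not called against scramble without the offsets. With them, Bst2 (log2 fold change 0.90, edgeR adjusted p = 0.00364), Ifitm1 (0.59, adjusted p = 0.0148) and Samhd1 (0.24, adjusted p = 0.0442) were called higher with Baf250A, Samhd1 with Brd9 (0.31, adjusted p = 0.0196) and Rtp4 with Baf180 shRNA (1.14, adjusted p = 0.0146). Between knockdowns, Eif2ak2 was lower with Baf180 than with Baf250A shRNA by a log2 difference of 1.61 (Baf250A minus Baf180, SE 0.33, edgeR adjusted p = 0.00247; 0.65 with the offsets).

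**Figure D3:**
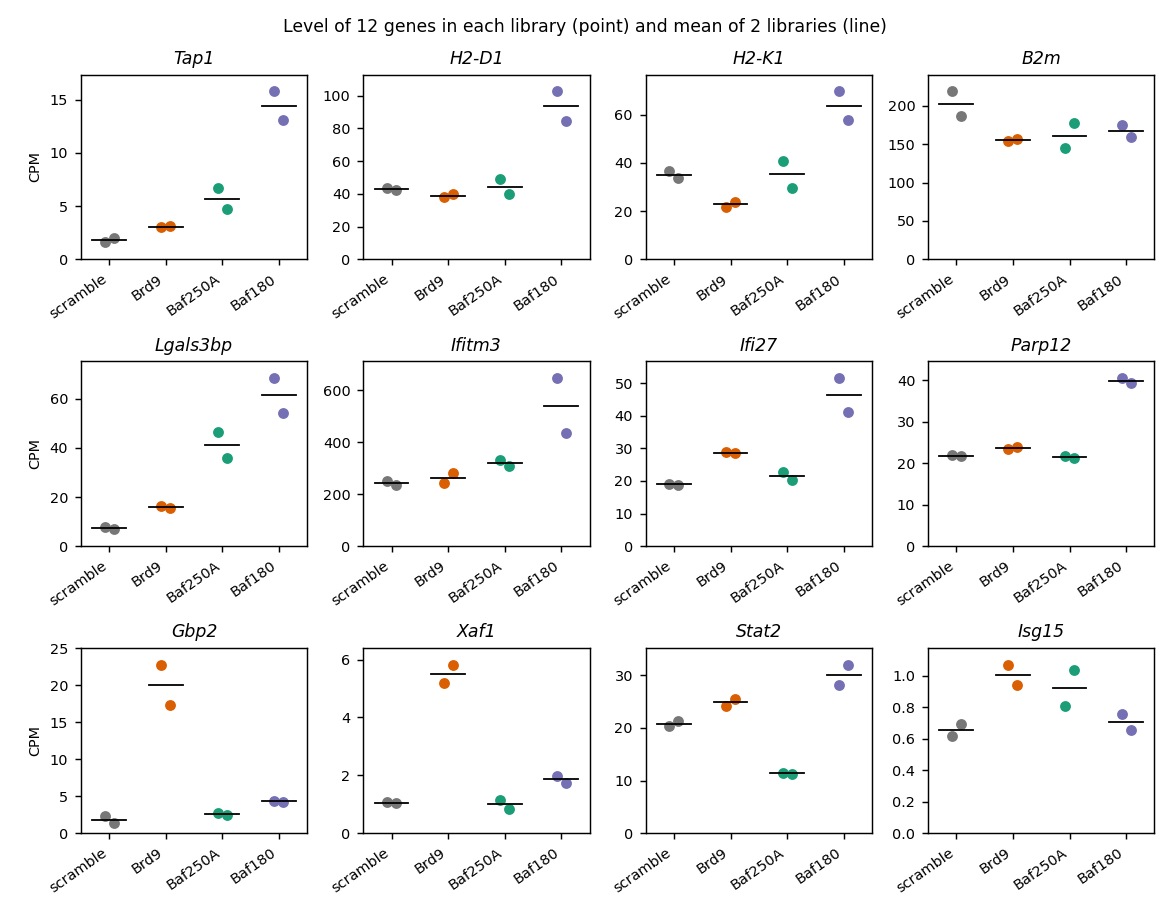
CPM of 12 genes in each of the 8 libraries (points), with the mean of the 2 libraries of a group as a line; axes start at 0 and differ in scale. Tap1, H2-D1, H2-K1, Lgals3bp, Ifitm3, Ifi27 and Parp12 are highest in the Baf180 libraries, Gbp2 and Xaf1 in the Brd9 libraries, Stat2 is lowest in the Baf250A libraries, and Isg15 stays near 1 CPM or below.

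Neither RNA sensor was called against scramble by edgeR, DESeq2 or limma-voom, and neither reached an unadjusted p under 0.05. Dhx58 (LGP2, chromosome 11, 100694884 to 100704271) was the higher of the pair per length, at 0.33 CPM per kilobase. It had 13 and 13 counts with scramble, 11 and 16 with Brd9, 21 and 22 with Baf250A and 12 and 13 with Baf180 shRNA. Only the Baf250A libraries lay clear of the rest, at a log2 fold change of 0.56 (SE 0.38, edgeR adjusted p = 0.267). Ifih1 (MDA5), the sensor of long double-stranded RNA, had 10 to 29 counts per library.

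All 4 transcription factors were called higher with Baf180 shRNA by edgeR's test, where 17.2% of all tested genes were. DESeq2 called 2 of them higher and limma-voom 4, and with the offsets 3 were. Irf7 passed the filter only through the Brd9 and Baf180 libraries. With Baf250A shRNA 1 of the 4 fell, where 14.0% of all tested genes were called lower. Stat2, the partner of IRF9 (chromosome 10, 128270498 to 128292853), had 363 and 368 counts with scramble, 499 and 487 with Brd9, 227 and 219 with Baf250A and 487 and 586 with Baf180 shRNA. Both Baf250A libraries lay below all the others and the Baf180 libraries lay highest in CPM. It was 1.83-fold lower with Baf250A shRNA (log2 fold change −0.87, SE 0.15, edgeR adjusted p = 0.00426) in every fit that left out 1 library, and −0.77 with the offsets. With Baf180 shRNA its log2 fold change was 0.53 (adjusted p = 0.0245), and Baf250A against Baf180 differed by −1.41 (SE 0.15, adjusted p = 0.000154).

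Irf1, an inducible activator that also drives class I genes, was the highest of the 4 per length, with 24.9 CPM per kilobase (chromosome 11, 53770014 to 53778374). It had 813 and 681 counts with scramble, 980 and 1049 with Brd9, 1182 and 978 with Baf250A and 1255 and 1048 with Baf180 shRNA. All knockdown libraries were above scramble in CPM. The rise was called with Baf180 shRNA (log2 fold change 0.61, SE 0.17, edgeR adjusted p = 0.0236), and with Baf250A only with the offsets (0.55, adjusted p = 0.00507). Irf9 (chromosome 14, 55603985 to 55610030) had 73 and 80 counts with scramble, 140 and 139 with Brd9, 94 and 93 with Baf250A and 120 and 123 with Baf180 shRNA. In CPM the Brd9 and Baf180 libraries overlapped at the top, and all knockdown libraries exceeded scramble. It was called with Baf180 (0.65, SE 0.20, adjusted p = 0.0345) and not with Brd9 shRNA (0.69, SE 0.20, adjusted p = 0.0583) unless the offsets were used (0.67, adjusted p = 0.0126), and the difference between Brd9 and Baf180 was not called. Irf7 (chromosome 7, 141263183 to 141266499), which amplifies the interferon response, had 1 and 8 counts with scramble, 19 and 12 with Brd9, 10 and 8 with Baf250A and 21 and 17 with Baf180 shRNA. The scramble libraries differ widely in this gene, and its rise (log2 fold change 2.03, SE 0.65, adjusted p = 0.0382) rested on few counts and was not called with the offsets (1.63, adjusted p = 0.0642). The Stat2 and Irf1 calls with Baf180 shRNA were lost without either scramble library and without Baf180 replicate 2 (Stat2, adjusted p up to 0.152) or replicate 1 (Irf1, up to 0.169), that of Irf7 without scramble replicate 1 or either Baf180 library (up to 0.186) and that of Irf9 without any one of the 4 libraries (up to 0.19).

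Among the enzymes of ubiquitin, ISG15 and ADP-ribose transfer, 1 of 5 tested was called against scramble, higher with Baf180 shRNA. That is 20.0%, near the 17.2% of all tested genes called higher there. With the offsets 2 of 5 were higher with Baf180 shRNA, against 17.7% of all genes. Parp12, a mono-ADP-ribosyltransferase that acts on viral infection (chromosome 6, 39086412 to 39118349), had 392 and 375 counts with scramble, 485 and 457 with Brd9, 432 and 412 with Baf250A and 699 and 720 with Baf180 shRNA. The Baf180 libraries were clear of the other 6, which lay close together in CPM. It rose 1.83-fold with Baf180 shRNA (log2 fold change 0.87, SE 0.14, edgeR adjusted p = 0.00245; 0.83 with the offsets) in every fit that left out 1 library. Parp9 and Dtx3l, which form a complex, Parp14 and Trim25, the ubiquitin ligase that activates RIG-I, were not called against scramble. Dtx3l had 76 and 71 counts with scramble and 120 and 116 with Baf180 shRNA, a log2 fold change of 0.67 that passed the test only with the offsets (1.02, adjusted p = 0.00294). Usp18 and Trim30a were too low to test.

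Of the 5 interferon-inducible GTPases tested, 1 rose with each shRNA (20.0%), Gbp2 with Brd9 and Baf180 and Gbp7 with Baf250A. The shares of all tested genes called higher were 6.45% (Brd9), 15.5% (Baf250A) and 17.2% (Baf180). With the offsets 2, 0 and 1 of the 5 were higher, against 11.8%, 17.7% and 17.7% of all genes. Gbp7 passed the filter only through the Brd9 and Baf250A libraries. Gbp2, a guanylate-binding protein that attacks pathogen vacuoles (chromosome 3, 142620663 to 142638008), had 40 and 24 counts with scramble, 469 and 330 with Brd9, 54 and 47 with Baf250A and 76 and 78 with Baf180 shRNA. The Brd9 libraries were far above all the others, and the Baf180 libraries were above scramble and Baf250A. In CPM the means were 1.82 ± 0.61 (SD, n = 2), 20.0 ± 3.9, 2.57 ± 0.20 and 4.33 ± 0.11. Gbp2 rose 11.0-fold with Brd9 shRNA (log2 fold change 3.46, SE 0.28, edgeR adjusted p = 0.000198; 3.28 with the offsets), and stayed called without any single library. It was called with Baf180 shRNA too (1.25, SE 0.28, adjusted p = 0.0111), but not without scramble replicate 2 (adjusted p = 0.0889). Brd9 exceeded Baf250A by 2.96 (SE 0.26, adjusted p = 0.000117) and Baf180 by 2.21 (SE 0.25, adjusted p = 0.00161) on the log2 scale.

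The neighbours of Gbp2 had fewer counts. Gbp3, with a start 60307 bases from that of Gbp2 on the same strand, had 14 and 17 counts with scramble, 69 and 33 with Brd9, 19 and 36 with Baf250A and 11 and 12 with Baf180 shRNA. Its log2 fold change with Brd9 shRNA was 1.52 (edgeR adjusted p = 0.0622), called only with the offsets (1.31, adjusted p = 0.0244). Gbp7 (chromosome 3, 142530336 to 142550151) had 2 and 3 counts with scramble, 9 and 14 with Brd9, 13 and 29 with Baf250A and 1 and 7 with Baf180 shRNA. As it passed the filter only through Brd9 and Baf250A libraries, its call with Baf250A supports nothing further. Baf250A and Brd9 were above scramble on few counts; the log2 fold change with Baf250A was 2.86 (SE 0.78, adjusted p = 0.0244), lost with the offsets (2.05, adjusted p = 0.0502) and without either scramble library or Baf250A replicate 2 (up to 0.167). Igtp was not called, and Irgm1, the highest of the group at 12.5 CPM per kilobase (chromosome 11, 48865245 to 48871420), had 446 and 459 counts with scramble, 709 and 556 with Brd9, 561 and 622 with Baf250A and 396 and 462 with Baf180 shRNA, with no call.

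In antigen processing and MHC class I, 3 of 5 tested genes rose with Baf180 shRNA (Tap1, H2-D1 and H2-K1), 2 with Baf250A (Tap1, and Psmb8, which passed the filter only there) and 0 with Brd9 by edgeR's test. With Brd9 shRNA 1 was higher and 2 were lower at an unadjusted p under 0.05, DESeq2 called 1 lower and limma-voom 0. With the offsets 4 were higher and 0 lower with Baf180, 4 and 1 with Baf250A and 1 and 2 with Brd9 shRNA, where the shares of all genes called higher were 17.7%, 17.7% and 11.8% with them and 17.2%, 15.5% and 6.45% without. Tap1, a subunit of the transporter that carries peptides into the endoplasmic reticulum (chromosome 17, 34187556 to 34197225), had 29 and 34 counts with scramble, 62 and 59 with Brd9, 133 and 91 with Baf250A and 272 and 239 with Baf180 shRNA. The 4 groups followed one another without overlap in CPM. The means were 1.80 ± 0.24 (SD, n = 2), 3.05 ± 0.060, 5.69 ± 1.4 and 14.4 ± 1.9 CPM. Tap1 rose 7.99-fold with Baf180 shRNA (log2 fold change 3.0, SE 0.26, edgeR adjusted p = 0.000134; 2.56 with the offsets) and 3.16-fold with Baf250A (1.66, SE 0.27, adjusted p = 0.00272), and both held without any single library. With Brd9 shRNA the value of 0.76 missed the threshold (adjusted p = 0.105) and passed with the offsets (0.83, adjusted p = 0.0146). Baf180 exceeded Baf250A, as Baf250A minus Baf180 was −1.34 (SE 0.23, adjusted p = 0.00116; −0.53 with the offsets, adjusted p = 0.0163).

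H2-D1 (chromosome 17, 35263094 to 35267497) encodes a class I heavy chain. It had 777 and 731 counts with scramble, 791 and 757 with Brd9, 971 and 772 with Baf250A and 1772 and 1547 with Baf180 shRNA, and in CPM the Baf180 libraries were the highest and the Brd9 libraries the lowest, the latter by a small margin. With Baf180 shRNA it rose 2.18-fold (log2 fold change 1.12, SE 0.15, edgeR adjusted p = 0.0013; 0.73 with the offsets). H2-K1 (chromosome 17, 33996012 to 34000619), the second heavy chain, had 651 and 585 counts with scramble, 447 and 458 with Brd9, 814 and 575 with Baf250A and 1203 and 1059 with Baf180 shRNA. The Baf180 libraries were highest and the Brd9 libraries lowest. It rose 1.81-fold with Baf180 shRNA (0.86, SE 0.18, adjusted p = 0.0085; 0.45 with the offsets), though not without scramble replicate 2 or Baf180 replicate 1 (adjusted p up to 0.0725). With Brd9 shRNA H2-K1 was at −0.62 (adjusted p = 0.0626), and −0.49 with the offsets, which passed (adjusted p = 0.00665). With Baf250A shRNA neither heavy chain was called, at 0.05 for H2-D1 and 0.01 for H2-K1, but with the offsets both were higher (0.40, adjusted p = 0.00677, and 0.37, adjusted p = 0.0186). Class I genes are near-identical copies and vary between mouse strains, so counts can be exchanged between H2-K1, H2-D1 and related genes.

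B2m (chromosome 2, 122147687 to 122153082) had 3898 and 3234 counts with scramble, 3181 and 2994 with Brd9, 2876 and 3444 with Baf250A and 3008 and 2930 with Baf180 shRNA. In CPM both libraries of each knockdown lay below both of scramble, by log2 fold changes of −0.38, −0.33 and −0.28, none called (edgeR adjusted p = 0.118, 0.11 and 0.158). Of all tested genes 31.2% (Brd9), 39.5% (Baf250A) and 37.1% (Baf180) lay below scramble in this way. Its direction with Baf180 shRNA depends on the offsets, with which it is called higher at 0.45 (adjusted p = 0.0402), and it is then called lower with Baf250A at −1.05 and with Brd9 at −0.55 (adjusted p = 0.022). Psmb8 and Psmb9, which are among the catalytic subunits of the immunoproteasome, had few counts in every library. Psmb8 (chromosome 17, 34198195 to 34201454) had 1 and 1 counts with scramble, 7 and 2 with Brd9, 11 and 12 with Baf250A and 3 and 4 with Baf180 shRNA, so that Baf250A stood apart. The ratio of counts for Baf250A was 11.2 with an exact 95% interval from 2.77 to 97.9, which covers counting error only. As the gene passed the filter only through the Baf250A libraries, its call there supports nothing further, and it was lost without either scramble library or Baf250A replicate 2. Psmb9 had 3 and 4, 3 and 2, 4 and 2, and 5 and 6 counts in the same order and was not tested. Its start lies 226 bases from that of Tap1 on the opposite strand, so their promoter windows overlap, and Psmb8 starts 10639 bases from Tap1.

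The other genes of antigen processing and class I, a list of 24 with 18 tested, had 7 called higher and 1 lower with Baf180, 2 and 2 with Baf250A and 2 and 0 with Brd9 shRNA. These are 38.9% and 5.56%, 11.1% and 11.1%, and 11.1% and 0%. Of all tested genes 17.2% and 17.0%, 15.5% and 14.0%, and 6.45% and 3.57% were called higher and lower. The offsets gave 9 and 1, 3 and 3, and 4 and 0. The shares of all genes with them were 17.7% and 20.0%, 17.7% and 17.4%, and 11.8% and 18.3%. Tap2, the partner of Tap1 in the transporter (chromosome 17, 34204479 to 34216321), had 60 and 56 counts with scramble, 103 and 114 with Brd9, 206 and 124 with Baf250A and 321 and 258 with Baf180 shRNA, in the same order as Tap1. It rose with Baf180 (log2 fold change 2.30, edgeR adjusted p = 0.000714) and with Baf250A shRNA (1.34, adjusted p = 0.00904; not without either scramble library). Tapbp, tapasin, which bridges class I molecules to the transporter, had 1506 and 1350 counts with scramble and 4983 and 4436 with Baf180 shRNA, with a log2 fold change of 1.71 (adjusted p = 0.00028). The constitutive proteasome subunits Psmb5, Psmb6 and Psmb7 were not called against scramble by edgeR, DESeq2 or limma-voom. At an unadjusted p under 0.05, 1 was lower with Brd9 and 1 with Baf180 shRNA. Of the 18 other antigen processing genes, 0 were lower with Brd9 shRNA at that p as well, or by DESeq2 or limma-voom.

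**Figure D4:**
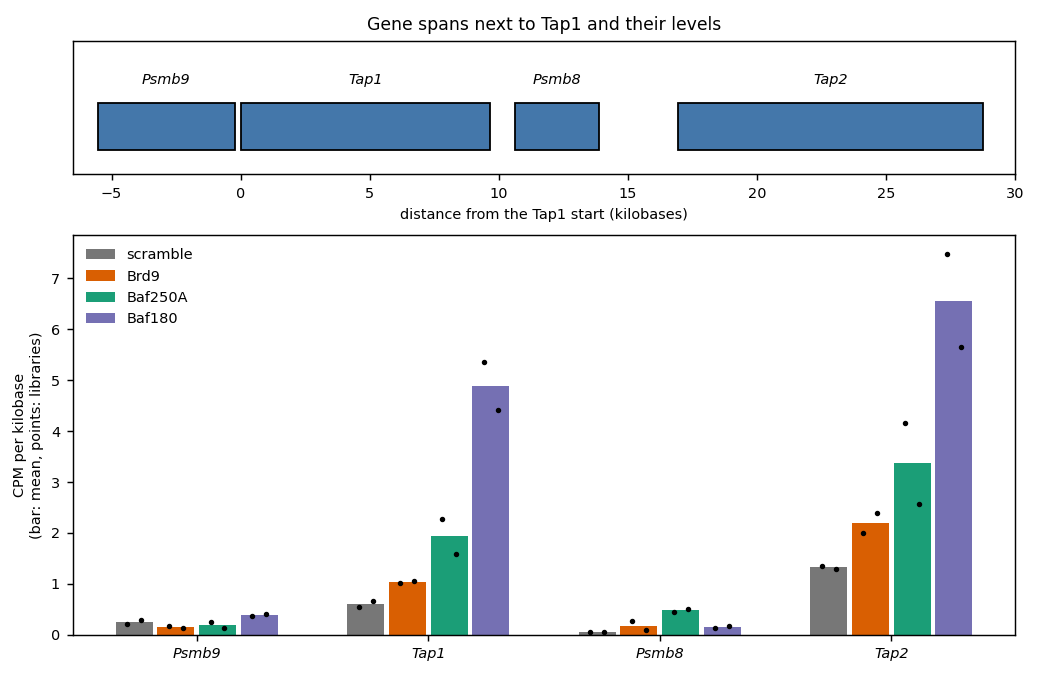
Upper panel, the spans of Psmb9, Tap1, Psmb8 and Tap2 in kilobases from the Tap1 start; lower panel, their level in CPM per kilobase of gene length, with bars for the mean of a group and points for its 2 libraries. Tap1 and Tap2 increase from scramble to Baf180, Psmb9 stays at or below 0.38 CPM per kilobase in every group mean, and Psmb8 is highest with Baf250A shRNA.

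Tested against each other, the knockdowns differed. Between Brd9 and Baf250A 3 of 37 genes were higher with Brd9 and 5 lower, where 15.0% and 10.0% of all genes were called, 25.0% in all. Between Brd9 and Baf180 5 were higher with Brd9 and 11 lower (backgrounds 26.3%, 23.3% and 49.6% either way), and between Baf250A and Baf180 6 were higher with Baf250A and 14 lower (30.8%, 31.7% and 62.5%). With the offsets the numbers were 6 and 7 (backgrounds 18.8%, 25.5% and 44.3%), 3 and 10 (14.0%, 18.9% and 32.9%) and 6 and 13 (28.5%, 26.2% and 54.7%). The Brd9 and Baf250A counts rest on few genes: Gbp2, Xaf1 and Stat2 were higher with Brd9 shRNA, and Tap1, Lgals3bp, H2-K1, Bst2 and Ifitm1 lower. Ifit1, Gbp7 and Psmb8 were among the genes higher with Baf250A than with Baf180 shRNA. Psmb8 passed the filter only through the Baf250A libraries, Gbp7 only through Brd9 and Baf250A, and Ifit1 only through scramble and Baf250A. The calls of Ifit1, Gbp7 and Psmb8 there support nothing further. The total for Brd9 against Baf180 was 8 without Brd9 replicate 1 and 9 without Baf180 replicate 1, from 16, that for Baf250A against Baf180 was 12 without Baf250A replicate 2 and 13 without Baf180 replicate 1, from 20, and that for Brd9 against Baf250A was 5 without Brd9 replicate 2, from 8. H2-D1, for example, was lower with Baf250A than with Baf180 shRNA by −1.08 (SE 0.15, edgeR adjusted p = 0.000459), and by −0.32 with the offsets (adjusted p = 0.0108), and H2-K1 lost its call there (−0.08, adjusted p = 0.517).

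The counts of the other pathway lists are to be read against all tested genes, of which 10.0% were called with Brd9, 29.5% with Baf250A and 34.2% with Baf180 shRNA. Counts with the offsets are to be read against 30.1%, 35.1% and 37.7% of all tested genes called with them. Of 18 tested receptors and JAK-STAT genes, 1 rose and 1 fell with Brd9, 5 and 0 with Baf250A and 4 and 2 with Baf180 shRNA (11.1%, 27.8% and 33.3% called), and with the offsets 4 and 1, 7 and 1, and 5 and 2. Stat3, a signal transducer of cytokine receptors, rose with all 3, from 1218 and 1089 counts with scramble to 2421 and 2280 under Brd9, 2684 and 2551 under Baf250A and 1866 and 2014 under Baf180 shRNA (log2 fold changes 0.85, 1.02 and 0.73, adjusted p = 0.00304, 0.000511 and 0.00284; the Brd9 call not without scramble replicate 2). Of 19 tested nucleic acid sensing genes, 2 rose and 0 fell with Brd9, 4 and 2 with Baf250A and 4 and 3 with Baf180 shRNA (10.5%, 31.6% and 36.8%), and with the offsets 4 and 2, 6 and 2, and 4 and 3. Tmem173 (STING), the adaptor of cytosolic DNA sensing, had 457 and 473 counts with scramble, 458 and 441 with Brd9, 139 and 114 with Baf250A and 281 and 227 with Baf180 shRNA, and fell by 2.04 on the log2 scale with Baf250A (adjusted p = 0.000168) and by 0.89 with Baf180 (adjusted p = 0.00791; not without scramble replicate 2). Of 31 tested further interferon-stimulated genes, 5 rose and 0 fell with Brd9, 6 and 3 with Baf250A and 4 and 3 with Baf180 shRNA (16.1%, 29.0% and 22.6%), and with the offsets 7 and 3, 3 and 6, and 5 and 4. Where no gene was called lower in these 3 lists, edgeR's unadjusted p under 0.05 gave 2 lower JAK-STAT genes with Baf250A, 0 sensing genes with Brd9 and 2 further interferon-stimulated genes with Brd9, and DESeq2 and limma-voom called 0 in each. Of 7 MHC class II genes 2 were tested, since Ciita, H2-Aa, H2-Ab1 and H2-Eb1 had at most 3 counts in every library. Of the 2, 1 was called higher with Brd9, 1 with Baf250A and 2 with Baf180 shRNA. The shares of all tested genes called higher were 6.45%, 15.5% and 17.2%. The median log2 fold changes of the 2 were 0.45, 0.60 and 2.24. The gene not called higher with Baf250A shRNA was lower there at an unadjusted p under 0.05 by edgeR's test. Cd74, the invariant chain of class II, had 15 and 15 counts with scramble, 39 and 47 with Brd9, 66 and 51 with Baf250A and 169 and 181 with Baf180 shRNA. It rose by a log2 fold change of 3.52 with Baf180 (adjusted p = 8.1e-05), 1.79 with Baf250A (adjusted p = 0.00277) and 1.34 with Brd9 (adjusted p = 0.0237; lost without any 1 of its 4 libraries). Of the 8 myoblast markers 6 rose and 1 fell with Baf180, 1 rose and 4 fell with Baf250A, and 3 rose with Brd9 shRNA, and the part of this in the results above was not tested.

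**Figure D5:**
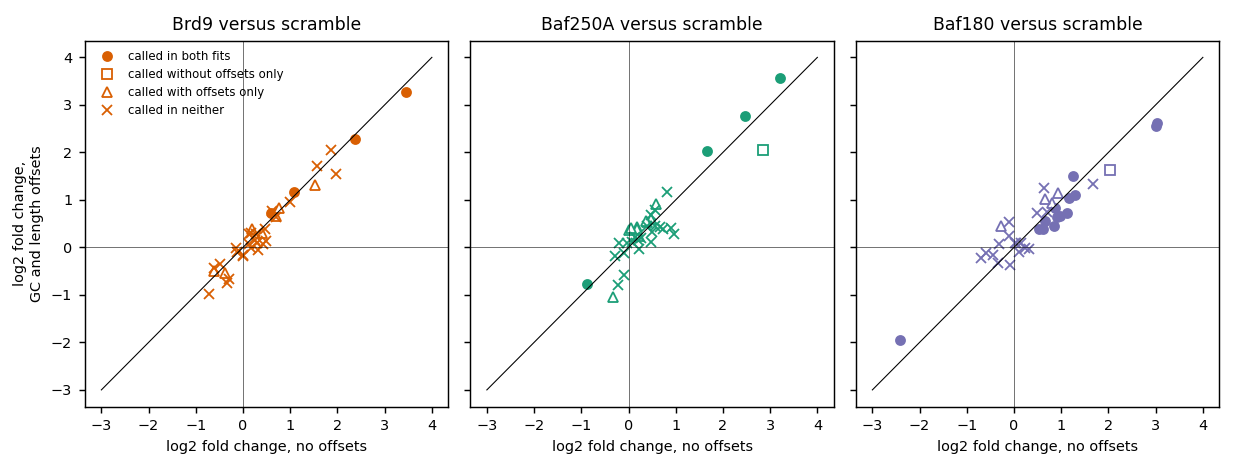
Log2 fold change against scramble of the 37 tested genes without (horizontal) and with (vertical) the GC and length offsets, the diagonal marking equal values; symbols show in which of the fits a gene was called. Gbp7 with Baf250A and Irf7 with Baf180 shRNA are the calls lost with the offsets, and 21 calls were gained across the 3 comparisons.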

How the data were processed

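RNA was measured by sequencing total RNA of C2C12 libraries on a BGISEQ-500, 2 libraries per group. The authors deposited estimated counts for each gene. RSEM, Bowtie2, HISAT2, StringTie, Cufflinks, DESeq2 and mm10 are named, with no version or order, per the submitters' processing notes. Whether counting used strand is not stated in the labels. A further deposited column, another value, is the gene length in bases per the file headers. Groups come from the sample titles.

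Estimated counts were rounded to whole numbers. Of 24573 genes, filterByExpr kept 12420 (10 counts in a library of median size, here a cut of 0.541 CPM), TMM scaled the libraries, and 1 quasi-likelihood fit in edgeR 4.0.16 (R 4.3.3) used all 8 libraries with 4 groups. Benjamini-Hochberg adjustment ran within each of 6 comparisons. Standard errors were obtained by dividing the size of the log2 fold change by the root of its F statistic. CPM are counts over the scaled library size. The offsets are loess curves (span 0.3) of log2 CPM on transcript GC content, known for 98.95% of tested genes from GENCODE transcripts, and on gene length. The fit was checked on simulated data. Names and coordinates come from RefSeq on GRCm38, matched by gene ID (24479) or accession (9). No molecular identifiers are stated, so intervals cover counting error only.

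The genes, the 10 accompanying lists and the offsets were chosen with earlier results of these data known. Every listed gene was accounted for, with full statistics for genes called against scramble and the highest gene per length of each role, and of other lists up to 2 genes with the lowest p per comparison. Alternatives were RLE scaling, other filters, DESeq2 1.42.0, limma-voom (limma 3.58.1), 4 libraries alone, the replicate number as a block and each library left out.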

Additional observations from a re-analysis of the deposited data

How the results depend on the processing

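The number of genes called against scramble depended on the fit. For Brd9 (4 called) it was 11 with the GC and length offsets, 8 with the 4 libraries alone and 2 to 4 when 1 library was left out. For Baf250A (5) it was 8 with RLE scaling, 8 without a filter, 3 at a mean of at least 5 CPM, 14 with the offsets, 9 with the 4 libraries alone and 3 to 8 with 1 library left out, and for Baf180 (15) it was 8 to 13 with 1 library left out. For Brd9 against Baf250A (8) the offsets gave 13, and leaving out 1 library gave 5 to 8. The ranges were 8 to 17 for Brd9 against Baf180 (16) and 12 to 18 for Baf250A against Baf180 (20). The other alternatives stayed within 1.5 times. Of 222 values of the 37 genes in 6 comparisons, 30 changed sign with the offsets, 6 of them called in either fit: Ifit2 (−0.26), Lgals3bp (0.14), Dtx3l (−0.63) and Irgm1 (−0.27) in Baf250A versus Baf180, and B2m in Baf180 versus scramble (0.45) and Brd9 versus Baf250A (0.50). The cause was not tested. A fit with 1 library in a group assumes that it varies like the others. The replicate numbers are not stated to pair the libraries, and deviations of same-numbered libraries correlated at −0.48 to 0.46. With the number as a replicate block the counts were 3, 5, 12, 7, 15 and 18 in the order above. Exchanging the Brd9 numbers, an alternative chosen after seeing the data, gave 11 for Brd9 against Baf250A and 19 for Brd9 against Baf180.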
